A study of Codonopsis pilosula with 12 samples.

Results

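The circadian clock and light signalling genes expressed in the leaves of drought-stressed Codonopsis pilosula seedlings were examined. Codonopsis pilosula is a medicinal herb of the Campanulaceae whose dried roots are used in Chinese medicine. Genes were taken as members when the protein database hit or gene name carried one of a fixed set of words: phytochrome, a numbered phytochrome-interacting factor (PIF), cryptochrome, phototropin, ADAGIO, LATE ELONGATED HYPOCOTYL, REVEILLE, GIGANTEA, the pseudo-response regulators, EARLY FLOWERING, CONSTANS or B-box zinc finger. The words matched 74 genes, of which 6 were dropped because the best SwissProt hit was not from a land plant. The remaining 68 genes, of 55270 in the assembled table, were kept. Of these, 63 had enough counts to be tested. The 5 others (an ADAGIO-like fragment, COL4, a CONSTANS-like fragment and 2 PIF1 helicases) never exceeded a level of 7.36 in a library, in TPM, the length-corrected share of the transcripts of a library.

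The seedlings belonged to the cultivars Weidang No. 1 (W1), a variety promoted locally, and Gandang No. 1 (G1), a newer selection. Water was withheld from 4-week-old potted seedlings, and leaves were sampled in the late afternoon. CW1 and CG1 are the well-watered leaves of W1 and G1 on drought day 0, and DW1 and DG1 are the leaves on drought day 4, with 3 libraries in each of the 4 groups. No watered plants of day 4 were sequenced, so drought and 4 further days of growth cannot be told apart. Sampling at 1 time of day gives levels only, and the phase or amplitude of a rhythm cannot be read from it.

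In plants, phytochromes sense red and far-red light, and cryptochromes, phototropins and ADAGIO proteins sense blue light. Activated phytochromes act largely through the PIFs, which are basic helix-loop-helix (bHLH) transcription factors that are destabilised in the light and promote growth in the dark. The clock is a loop of repressors and activators expressed in turn through the day: the MYB factors LHY, CCA1 and the REVEILLE proteins around dawn, the pseudo-response regulators (PRR) from morning to evening, and GIGANTEA and the EARLY FLOWERING complex towards dusk. CONSTANS and the other B-box proteins carry day length and light signals to flowering and growth. These roles were worked out mainly in Arabidopsis, and membership here rests on sequence similarity.

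Depth was between 12415229 and 22837632 expected counts per library. CW1 replicate 1 carries a treatment label that reads drought, against its title, and was kept in CW1. DG1 replicate 1 stood apart. Genes with a vertebrate best SwissProt hit and no hit in the NR protein database (1790 genes) reached a sum of 24470 TPM there, against 1392 to 2426 TPM elsewhere. The 46 leaf mesophyll marker genes (Rubisco small subunit, chlorophyll a-b binding, oxygen-evolving and carbonic anhydrase proteins) had a sum of 17130 TPM there and sums from 77600 to 156000 TPM in the rest, so leaf markers were present in all 12. Root markers (16 genes) summed to at most 174.9 TPM, secondary wall and vascular markers (24 genes) to 169.2 to 676.9 TPM and guard cell and epidermis markers (15 genes) to 23.8 to 131.9 TPM, lower in each of the 6 drought libraries than in each of the 6 well-watered ones for the guard cell and epidermis list. The 3 flower markers summed to 63.8 and 38.8 TPM in DW1 replicates 1 and 3, and to at most 9.44 TPM elsewhere. The part of these differences in the results was not tested. In bulk leaf, a gain of RNA per cell and a gain of cells that hold it cannot be told apart.

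Many clock and light signalling genes rose under drought, and none fell past the test. In G1, 23 of 63 members rose and 0 fell at an adjusted p under 0.05, where 11.5% of the 29168 genes tested rose and 12.3% fell. The risers held PIF3 and PIF1, 3 REVEILLE genes, 4 pseudo-response regulators, 1 EARLY FLOWERING 4-like gene, cryptochrome 2, 1 phototropin 2 gene, ADO3, 6 CONSTANS and B-box genes and 4 phytochrome partners. Their log2 fold changes lay between 0.48 and 2.62 with a median of 1.15, and only 2 of them changed by at least 4-fold. Over all 63 members the median log2 fold change was 0.48, against 0.01 over all genes tested.

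In W1, PIF3 alone rose and 0 members fell, where 0.771% of all genes rose and 0.799% fell. That count was 4 without DW1 replicate 1, 0 without CW1 replicate 1, CW1 replicate 2 or DW1 replicate 2, and 8 with DESeq2, which also called RVE1, RVE8 DN14397_c1_g2, EFL1, COL9, CRY2, ADO3 and PHOT2 DN21643_c2_g3 (adjusted p from 0.00315 to 0.0264). The shares of all genes given here are those of edgeR on all 12 libraries. They cannot be set beside the counts of the alternatives, for which no share is given. The median log2 fold change of the 63 members in W1 was 0.19, against 0.02 over all genes. Far fewer genes of any kind passed in W1 than in G1. Of the 63 members, 42 had a positive log2 fold change in W1, as had 51.32% of all genes, and of the 23 genes that rose in G1, 21 did (median 0.46). Averaged over both cultivars, 24 members rose and 0 fell, beside 14% and 15.3% of all genes. Of these 24, 21 were among the genes that rose in G1. In either direction, 35 members in G1 and 17 in W1 had an unadjusted p under 0.05, beside 37.31% and 21.2% of all genes. DESeq2 called 1 member lower in G1 (COL2) and 0 in W1.

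**Figure D1:**
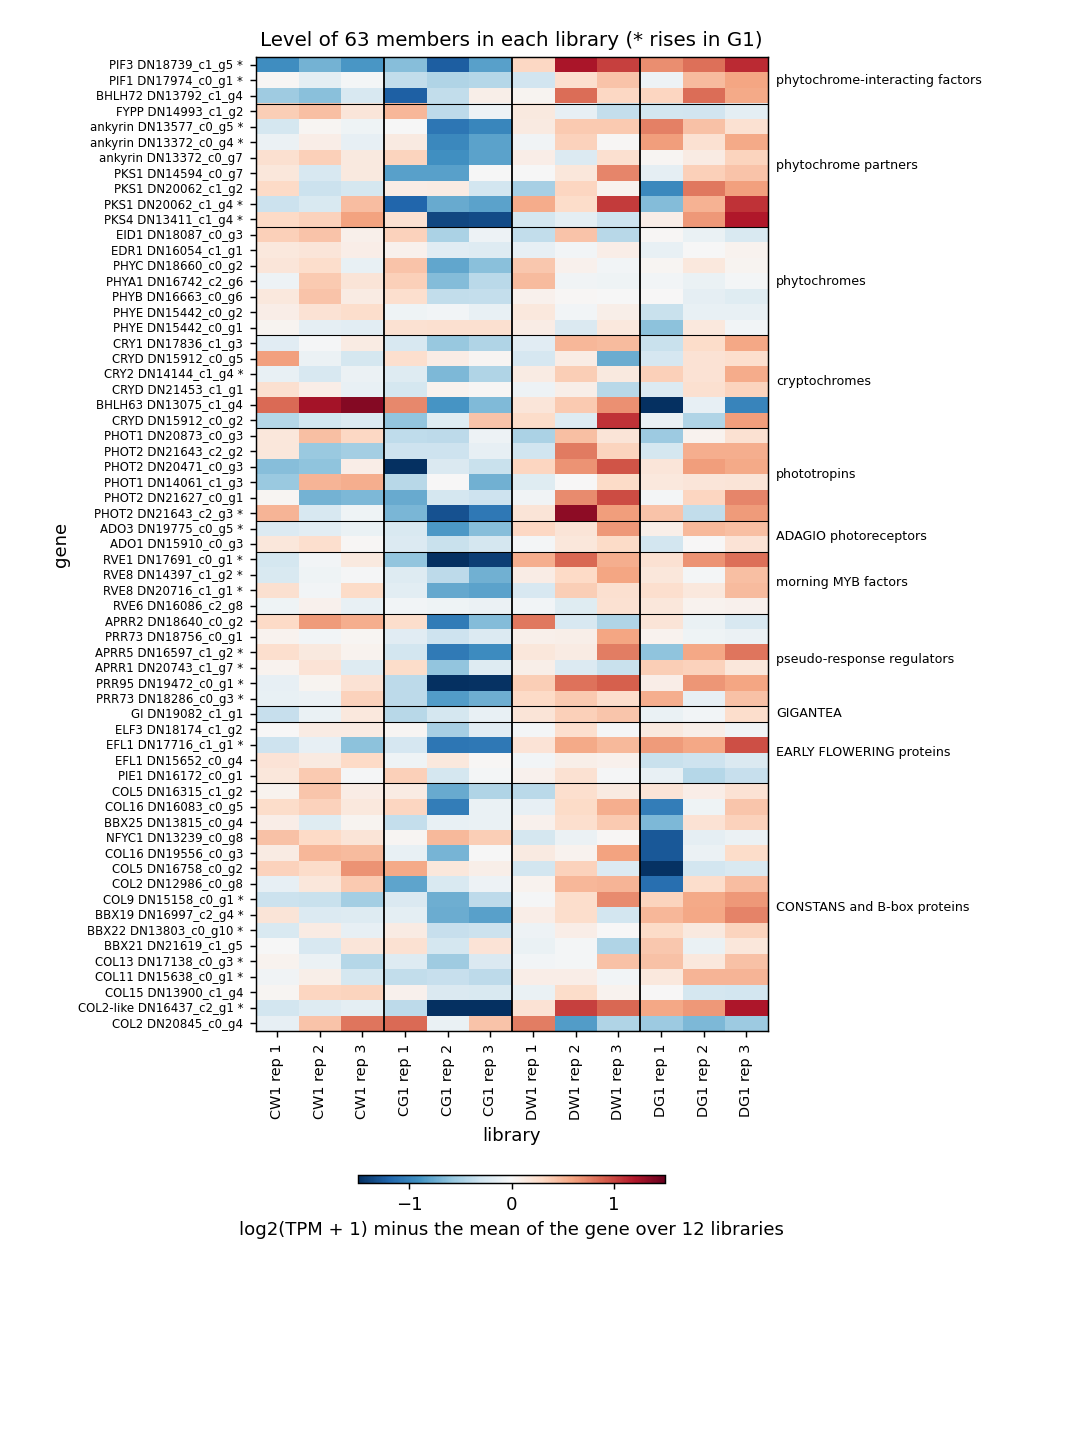
Level of the 63 tested members in each of the 12 libraries, as log2(TPM + 1) minus the mean of the gene over all libraries, with genes grouped by role and ordered by mean TPM within a role. Asterisks mark the 23 genes that rose in G1, red cells lie above and blue cells below the mean of the gene, and CG1 replicates 2 and 3 are blue for most of the asterisked genes.

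PIF3 rose in both cultivars. PIF3 (DN18739_c1_g5, 3095 bp) is the factor that first linked phytochrome to transcription, and it is also one of the bHLH factors of the table. Its level was 17.6, 20.8 and 18.5 TPM in CW1 and 21.8, 14.1 and 19.1 TPM in CG1. Under drought it was 43.0, 81.8 and 71.3 TPM in DW1 and 56.8, 62.1 and 75.9 TPM in DG1. Every drought library lay above every well-watered one, in both cultivars. The log2 fold change was 1.98 ± 0.25 (SE; adjusted p = 0.00127) in G1 and 1.97 ± 0.25 (adjusted p = 0.0187) in W1. The difference in drought change between the cultivars was 0.00, with a 95% interval of -0.75 to 0.75 on the log2 scale. PIF3 did not pass in W1 when CW1 replicate 1, CW1 replicate 2 or DW1 replicate 2 was left out (adjusted p up to 0.14), although its log2 fold change there stayed at 1.81 or more over all 12 single omissions. It also missed the threshold in W1 with CW1 replicate 1 and DG1 replicate 1 both left out (1.89, adjusted p = 0.0588) and with only CW1 and DW1 in the fit (1.99, adjusted p = 0.0775).

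PIF1 (DN17974_c0_g1), which represses chlorophyll and carotenoid synthesis and seed germination in Arabidopsis, changed less. It was at 24.4, 21.6 and 23.5 TPM in CW1, 18.4, 17.3 and 17.7 TPM in CG1, 19.6, 28.8 and 32.7 TPM in DW1 and 22.8, 33.9 and 36.9 TPM in DG1. The drought libraries were above the well-watered ones in G1 and overlapped them in W1. PIF1 rose in G1 (log2 fold change 1.01 ± 0.27, adjusted p = 0.0206) and lost the call without CG1 replicate 1 or 3 or DG1 replicate 2 or 3 (up to 0.069), and the value in W1 was 0.44 (adjusted p = 0.365). BHLH72, the PIF7 gene of Arabidopsis (DN13792_c1_g4), which acts in shade and warmth responses, was the lowest of the PIF genes at 3.30 ± 0.617 (SD) TPM in CW1, 3.45 ± 1.88 in CG1, 6.98 ± 2.34 in DW1 and 7.87 ± 1.58 in DG1. It passed only when the cultivars were averaged (1.16 ± 0.34, adjusted p = 0.0259). It lost that call without CW1 replicate 1 or 2, DW1 replicate 2 or 3 or DG1 replicate 2 (adjusted p up to 0.0689), and with CW1 replicate 1 and DG1 replicate 1 both left out (adjusted p = 0.058).

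**Figure D2:**
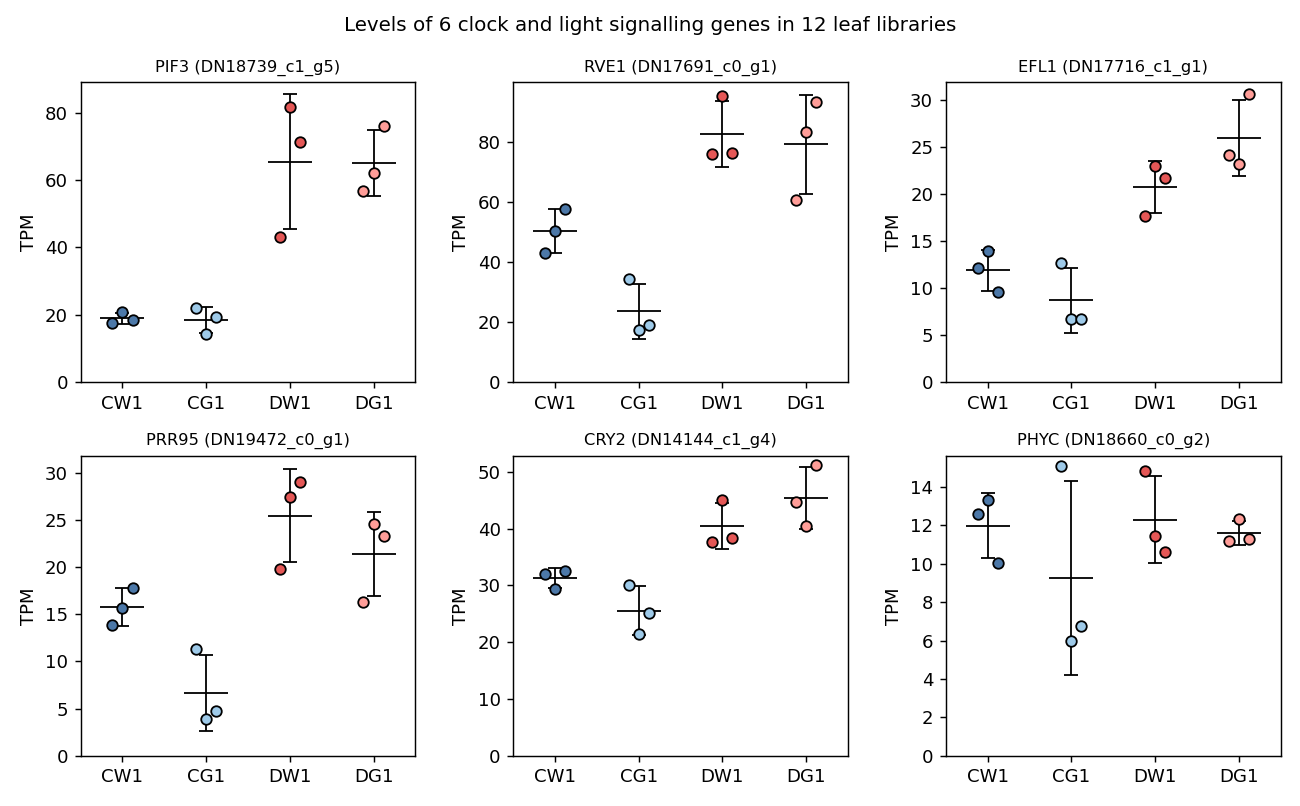
TPM of PIF3, RVE1, EFL1, PRR95, CRY2 and PHYC in the 3 libraries of each group (points), with the group mean (long bar) and SD (whiskers), n = 3. PIF3 is above 43 TPM in all 6 drought libraries and below 22 TPM in all 6 well-watered ones, RVE1, EFL1 and PRR95 are lowest in CG1 replicates 2 and 3, and PHYC shows no separation of drought from well-watered libraries.

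With edgeR on all 12 libraries, none of the 7 genes of the phytochrome group rose or fell in G1, in W1 or in the average. Of all genes, 11.5% rose and 12.3% fell in G1. PHYA1 (DN16742_c2_g6) was at 9.57, 13.6 and 11.7 TPM in CW1, 13.3, 6.09 and 7.43 TPM in CG1, 14.4, 9.74 and 9.66 TPM in DW1 and 9.80, 9.36 and 9.89 TPM in DG1. Its log2 fold change in G1 was 0.19, with a 95% interval of -0.23 to 0.62. For PHYB (DN16663_c0_g6), the main receptor of red light, the interval was -0.21 to 0.38 in G1 and -0.45 to 0.15 in W1. PHYC (DN18660_c0_g2) had a log2 fold change of 0.44 in G1 with an interval of 0.02 to 0.86 (adjusted p = 0.12), and passed when CG1 replicate 1 was left out, in G1 (adjusted p = 0.0428) and in the average (adjusted p = 0.0279). DESeq2 called it in the average too (0.35, adjusted p = 0.0433). The 2 PHYE genes gave -0.61 and -0.14 in G1, and both lie in 1 assembly cluster and can share reads. EID1, an F-box protein of phytochrome A signalling, and EDR1, a kinase of defence whose hit only carries the word phytochrome, were at -0.01 and 0.06 in G1.

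Of the 8 tested genes for proteins that bind or modify phytochrome, 4 rose in G1 and 0 in W1, beside 11.5% and 0.771% of all genes. A difference from the receptors was not tested. The 4 genes encode ankyrin repeat proteins that interact with phytochrome and phytochrome kinase substrates (PKS), membrane-bound proteins of phototropism. The ankyrin gene DN13577_c0_g5 was at 47.4, 58.4 and 54.5 TPM in CW1, 56.9, 26.5 and 28.4 TPM in CG1, 62.9, 75.0 and 75.2 TPM in DW1 and 97.3, 77.5 and 67.0 TPM in DG1. It rose in G1 by 1.10 ± 0.21 (adjusted p = 0.00524), as did the ankyrin gene DN13372_c0_g4 by 1.03 ± 0.22 (adjusted p = 0.009). The third ankyrin gene, DN13372_c0_g7 of the same cluster, was at 0.63 (adjusted p = 0.0836).

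PKS4 (DN13411_c1_g4) was the member whose change differed most in sign between cultivars. Its level was 3.53, 3.67 and 4.61 TPM in CW1, 2.08, 2.33 and 1.98 TPM in DW1, 3.31, 0.43 and 0.46 TPM in CG1 and 2.96, 4.80 and 7.49 TPM in DG1. The DW1 libraries were all below the CW1 ones, and in TPM the DG1 libraries overlapped CG1 through CG1 replicate 1. In counts scaled to depth they did not overlap, with DG1 replicate 1 at 6.37 and CG1 replicate 1 at 5.97. PKS4 rose in G1 (2.05 ± 0.63, adjusted p = 0.0378), while the value in W1 was -0.80 ± 0.61 (adjusted p = 0.485). The difference in drought change between the cultivars was 2.85 ± 0.87 and did not pass (unadjusted p = 0.00753, adjusted p = 0.386). Without CG1 replicate 1 that difference was 4.20 and passed (adjusted p = 0.00854), and the call in G1 was lost in 9 of the 12 single omissions. The gene PKS1 DN20062_c1_g4 rose in G1 by 1.69 ± 0.52 (adjusted p = 0.0386) and lost the call in 7 of them. FYPP, a phosphatase that acts on phytochrome and the most abundant of the group, was at 88.5, 93.1 and 77.3 TPM in CW1, 96.3, 51.6 and 64.6 TPM in CG1, 75.7, 62.7 and 53.1 TPM in DW1 and 56.3, 55.6 and 61.6 TPM in DG1, with log2 fold changes of -0.22 in G1 and -0.36 in W1 that did not pass. In the average its value of -0.29 passed with DESeq2 (adjusted p = 0.0103), with DESeq2 size factors in edgeR (0.0485) and without CG1 replicate 2 (0.0459).

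Blue light receptors were mixed. Cryptochrome 2 (CRY2, DN14144_c1_g4), which promotes flowering in Arabidopsis, was at 32.0, 29.3 and 32.6 TPM in CW1, 30.1, 21.4 and 25.2 TPM in CG1, 37.7, 45.1 and 38.4 TPM in DW1 and 44.7, 40.5 and 51.3 TPM in DG1. The drought libraries did not overlap the well-watered ones in either cultivar. CRY2 rose in G1 by 0.80 ± 0.15 (adjusted p = 0.00524), and the value in W1 was 0.46 ± 0.15 (adjusted p = 0.119, and 0.0264 with DESeq2). CRY1 (DN17836_c1_g3), the receptor that acts most in seedling growth under blue light, was at 0.73 (adjusted p = 0.0902) in G1 and 0.44 (adjusted p = 0.415) in W1, with a 95% interval of 0.09 to 1.37 in G1. It passed in G1 without DG1 replicate 1 (0.95, adjusted p = 0.0431), with CW1 replicate 1 also left out (adjusted p = 0.0479) and with a replicate block (adjusted p = 0.0224), and in the average with DESeq2 (0.59, adjusted p = 0.0267). The 3 cryptochrome DASH (CRYD) genes, relatives of the DNA repair photolyases, did not pass. BHLH63, a bHLH protein that binds CRY2 in Arabidopsis and no receptor, had 37.3, 49.5 and 54.6 TPM in CW1, 34.1, 10.5 and 12.5 TPM in CG1, 23.1, 27.1 and 33.2 TPM in DW1 and 2.1, 18.5 and 9.77 TPM in DG1. Its value of -0.61 in each cultivar did not pass (adjusted p = 0.483 in G1 and 0.589 in W1), and DG1 replicate 1 was its lowest library.

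Phototropins steer leaves and chloroplasts towards or away from blue light. Of the 6 genes, 1 rose in G1 and 3 in the average over cultivars, beside 11.5% and 14% of all genes. All of these risers were annotated as phototropin 2 (PHOT2), the receptor of strong blue light. PHOT2 DN20471_c0_g3 was at 22.97, 23.5 and 38.8 TPM in CW1, 11.2, 31.2 and 28.5 TPM in CG1, 45.7, 58.5 and 70.6 TPM in DW1 and 41.2, 56.4 and 54.1 TPM in DG1. All drought libraries exceeded all well-watered ones, and the log2 fold change averaged over cultivars was 1.09 ± 0.30 (adjusted p = 0.0208), with 1.04 in G1 and 1.14 in W1. The call was lost without CW1 replicate 1, CW1 replicate 2 or DW1 replicate 3 (adjusted p up to 0.0579), and with CW1 replicate 1 and DG1 replicate 1 both left out (adjusted p = 0.0522). In G1 alone it passed with limma (adjusted p = 0.0411) and with a replicate block (adjusted p = 0.0341). PHOT2 DN21627_c0_g1 gave 1.04 ± 0.31 (adjusted p = 0.0289) in the average and lost the call in 6 of the 12 single omissions (without CW1 replicate 2 or 3, CG1 replicate 3, DW1 replicate 2 or 3 or DG1 replicate 3). PHOT2 DN21643_c2_g3 rose in G1 by 1.54 ± 0.32 (adjusted p = 0.00753) from 2.80, 1.47 and 1.91 TPM in CG1 to 7.20, 3.74 and 8.55 TPM in DG1, and DESeq2 called it in W1 too (0.95, adjusted p = 0.0229). Its cluster mate DN21643_c2_g2, with which it can share reads, was at 0.68 in G1 (adjusted p = 0.217) and 0.70 in the average (adjusted p = 0.0706). In the average DN21643_c2_g2 passed with DESeq2 (adjusted p = 0.0402) and without DW1 replicate 1 (0.0311) or DG1 replicate 1 (0.0436). It also passed there with CW1 replicate 1 and DG1 replicate 1 both left out (0.0351). The most abundant phototropin gene, PHOT1 DN20873_c0_g3, was at 124, 150 and 137 TPM in CW1, 84.2, 83.2 and 104 TPM in CG1, 78.7, 150 and 125 TPM in DW1 and 74.6, 113 and 129 TPM in DG1. Its log2 fold change in G1 was 0.23, with an interval of -0.40 to 0.85.

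Among the ADAGIO proteins, ADO3 (FKF1 of Arabidopsis, DN19775_c0_g5) ties blue light to the removal of flowering repressors. It was at 12.7, 13.1 and 13.7 TPM in CW1, 12.5, 7.67 and 9.06 TPM in CG1, 18.4, 17.03 and 23.7 TPM in DW1 and 15.7, 21.0 and 20.4 TPM in DG1. It rose in G1 by 1.02 ± 0.19 (adjusted p = 0.00525), and the value in W1 was 0.68 ± 0.19 (adjusted p = 0.0877, and 0.0191 with DESeq2). ADO1 (ZEITLUPE, DN15910_c0_g3), which targets clock proteins for breakdown, was at 0.30 in G1 (adjusted p = 0.271) and 0.10 in W1 (adjusted p = 0.793).

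**Figure D3:**
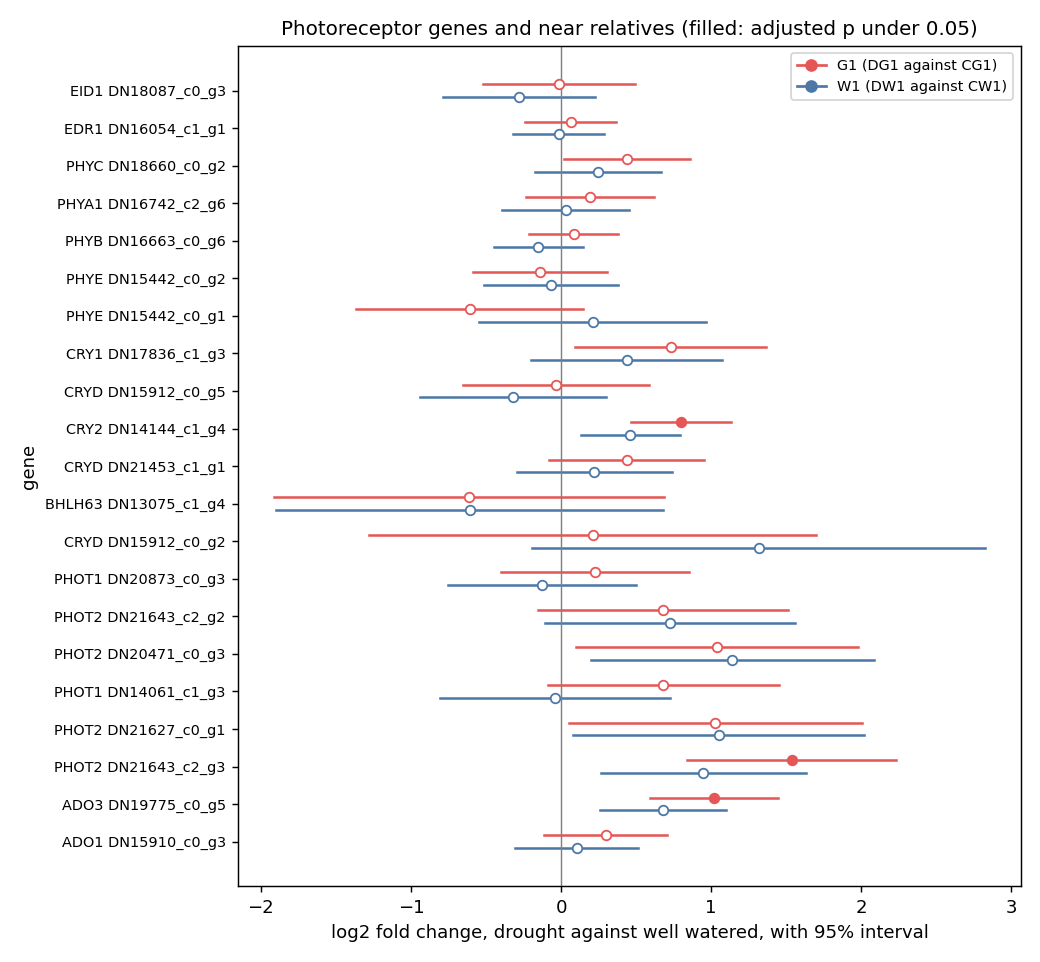
Log2 fold change of drought against well-watered leaves for the 21 tested genes of the phytochrome, cryptochrome, phototropin and ADAGIO groups, with 95% intervals, in G1 (red) and W1 (blue). Filled points passed the adjusted p threshold. None of the phytochrome points is filled, with values in G1 from -0.61 (PHYE DN15442_c0_g1) to 0.44 (PHYC), and filled points are seen only for CRY2, PHOT2 DN21643_c2_g3 and ADO3 in G1.

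Of the 4 morning MYB genes tested, 3 rose in G1 and 0 in W1, beside 11.5% and 0.771% of all genes. RVE1 (DN17691_c0_g1), a MYB factor that links the clock to auxin and growth in Arabidopsis, was at 43.0, 50.4 and 57.7 TPM in CW1, 34.1, 17.4 and 18.9 TPM in CG1, 76.0, 95.3 and 76.4 TPM in DW1 and 60.8, 83.4 and 93.2 TPM in DG1. The drought libraries lay above the well-watered ones in both cultivars, and CG1 was below CW1. RVE1 rose in G1 by 1.72 ± 0.22 (adjusted p = 0.00139), and the value in W1 was 0.85 ± 0.22 (adjusted p = 0.0747). DESeq2 called it in W1 too (0.86, adjusted p = 0.00541). Both RVE8 genes, which encode an activator of evening genes, rose in G1: DN14397_c1_g2 by 1.17 ± 0.23 (adjusted p = 0.0066) and DN20716_c1_g1 by 0.87 ± 0.21 (adjusted p = 0.0152), a call lost without CG1 replicate 2 or 3 or DG1 replicate 3. DESeq2 called DN14397_c1_g2 in W1 as well (0.92, adjusted p = 0.00325). For the shorter one, DN14397_c1_g2, the log2 ratio of mean TPM was only 0.65, and with limma on log2(TPM + 1) it missed the threshold (adjusted p = 0.0512). RVE6 (DN16086_c2_g8), a close relative of RVE8, was at 14.5, 16.0 and 14.1 TPM in CW1, 14.8, 14.6 and 14.3 TPM in CG1, 14.9, 13.4 and 18.1 TPM in DW1 and 17.4, 15.9 and 16.0 TPM in DG1, with a value of 0.23 in G1 (adjusted p = 0.336).

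Genes whose hit reads LHY, the dawn repressor itself, fall outside the words that chose the members and were added after their values were seen. Of the 3, DN21515_c2_g1 was the most abundant at 107, 94.0 and 94.1 TPM in CW1, 86.5, 97.3 and 95.2 TPM in CG1, 98.4, 142 and 109 TPM in DW1 and 116, 170 and 217 TPM in DG1. It rose in G1 by 0.90 ± 0.28 (adjusted p = 0.0408). DN15078_c1_g2 passed in the average over cultivars (0.82 ± 0.27, adjusted p = 0.0404), and DN14865_c2_g6 passed nowhere.

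The pseudo-response regulators repress the morning genes in sequence through the day. Of the 6 tested, 4 rose in G1 and 0 in W1, beside 11.5% and 0.771% of all genes. PRR95 (DN19472_c0_g1) was at 13.8, 15.7 and 17.8 TPM in CW1, 11.3, 3.93 and 4.78 TPM in CG1, 19.8, 27.5 and 29.0 TPM in DW1 and 16.3, 24.6 and 23.3 TPM in DG1. It rose in G1 by 1.74 ± 0.31 (adjusted p = 0.00438), and the value in W1 was 0.80 ± 0.31 (adjusted p = 0.168). APRR5 (DN16597_c1_g2) had 37.9, 35.0 and 32.6 TPM in CW1, 25.8, 14.6 and 15.9 TPM in CG1, 35.7, 34.5 and 54.2 TPM in DW1 and 20.4, 47.6 and 55.5 TPM in DG1. It rose in G1 by 1.23 ± 0.31 (adjusted p = 0.0173). In counts scaled to depth, DG1 replicate 1 was at 40.98, above the CG1 libraries at 36.76, 30.57 and 30.36. Only in TPM did DG1 replicate 1 lie inside the CG1 range. Without that library APRR5 still passed, and it did not pass without CG1 replicate 2 or 3 or DG1 replicate 2 or 3.

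The PRR73 genes behaved unlike each other. DN18286_c0_g3 was at 7.88, 5.49 and 6.03 TPM in CG1 and 16.0, 9.67 and 14.7 TPM in DG1, and rose by 1.15 ± 0.21 (adjusted p = 0.00441). DN18756_c0_g1 was at 33.7, 30.6 and 32.8 TPM in CG1 and 39.6, 36.4 and 35.7 TPM in DG1, with a value of 0.11 and a 95% interval of -0.31 to 0.53. APRR1, the evening repressor known as TOC1 (DN20743_c1_g7), rose least among the 4 (0.50 ± 0.15, adjusted p = 0.0375) and kept its call in 1 of the 12 single omissions. APRR2, which in Arabidopsis is a GLK-like factor with no place in the clock, was the most abundant gene of the group and did not pass (0.46 in G1, adjusted p = 0.283).

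The evening genes were less uniform. GIGANTEA (GI, DN19082_c1_g1), a scaffold that stabilises ADAGIO proteins, was at 38.8, 46.1 and 55.6 TPM in CW1, 36.9, 41.1 and 45.9 TPM in CG1, 57.0, 64.1 and 66.4 TPM in DW1 and 46.1, 48.4 and 59.9 TPM in DG1. In TPM the drought libraries were higher throughout in both cultivars, but in counts scaled to depth they overlapped the well-watered ones. There DG1 replicate 1, at 189.77, lay below CG1 replicates 2 and 3, at 207.29 and 208.21. DW1 replicate 1, at 213.03, lay below CW1 replicate 3, at 219.5. The change did not pass in G1 (0.31, adjusted p = 0.363), in W1 (0.51, adjusted p = 0.234) or in the average (0.41, adjusted p = 0.0821). With a replicate block the average passed (0.41, adjusted p = 0.0232). ELF3 (DN18174_c1_g2), the core of the evening complex, gave 0.37 in G1 (adjusted p = 0.103) and 0.08 in W1 (adjusted p = 0.798). The ELF4-like gene EFL1 DN17716_c1_g1 was at 12.1, 13.9 and 9.63 TPM in CW1, 12.6, 6.68 and 6.72 TPM in CG1, 17.7, 22.99 and 21.8 TPM in DW1 and 24.2, 23.2 and 30.7 TPM in DG1. It rose in G1 by 1.65 ± 0.22 (adjusted p = 0.00166), and the value in W1 was 0.91 ± 0.22 (adjusted p = 0.0637, and 0.00315 with DESeq2). The other EFL1 gene, DN15652_c0_g4, was at -0.36 in G1 (adjusted p = 0.293), and PIE1, a chromatin remodeller in the same name group, at -0.37 (adjusted p = 0.129).

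Of the 16 CONSTANS and B-box genes tested, 6 rose in G1, 0 in W1 and 6 in the average over cultivars. The shares of all genes were 11.5%, 0.771% and 14%. BBX19 (DN16997_c2_g4), a repressor of flowering in Arabidopsis, was at 21.6, 16.1 and 16.3 TPM in CW1, 16.9, 10.8 and 10.3 TPM in CG1, 20.2, 22.7 and 15.4 TPM in DW1 and 26.9, 28.7 and 32.0 TPM in DG1. It rose in G1 by 1.26 ± 0.19 (adjusted p = 0.00242), while the W1 libraries overlapped and the value there was 0.19 ± 0.19 (adjusted p = 0.604). Its difference in drought change, 1.07 ± 0.27, was the one with the smallest unadjusted p among the members (0.00228) and did not pass (adjusted p = 0.38). DESeq2 called it (adjusted p = 0.0331).

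COL9 (DN15158_c0_g1), another flowering repressor in Arabidopsis, was at 19.7, 19.5 and 17.2 TPM in CW1, 21.4, 14.6 and 18.8 TPM in CG1, 24.7, 30.2 and 41.2 TPM in DW1 and 31.8, 37.3 and 39.5 TPM in DG1. Drought and well-watered libraries did not overlap, and COL9 rose in G1 by 0.99 ± 0.22 (adjusted p = 0.00972), with 0.82 ± 0.22 in W1 (adjusted p = 0.0779, and 0.0109 with DESeq2). COL11 (0.84, adjusted p = 0.0099), COL13 (0.76, adjusted p = 0.0215) and BBX22 (0.48, adjusted p = 0.0303) rose in G1 by less. The largest log2 fold change of all members belonged to the COL2-like gene DN16437_c2_g1, at 4.06, 1.11 and 0.78 TPM in CG1 and 8.86, 9.39 and 14.4 TPM in DG1 (2.62 ± 0.49, adjusted p = 0.00519). Its CG1 libraries held as few as 19 counts.

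The most abundant genes of the group did not pass in either cultivar with edgeR on all 12 libraries. COL5 (DN16315_c1_g2) was at 117, 151 and 122 TPM in CW1, 123, 66.2 and 82.0 TPM in CG1, 84.6, 135 and 123 TPM in DW1 and 129, 121 and 131 TPM in DG1, with 0.54 in G1 (adjusted p = 0.0945) and -0.08 in W1 (adjusted p = 0.874). It passed in G1 when DW1 replicate 1 was left out (0.53, adjusted p = 0.0433). COL16 DN16083_c0_g5 (0.12 in G1, adjusted p = 0.841) and BBX25 (0.22 in G1, adjusted p = 0.632) overlapped between CG1 and DG1. The lowest value in G1 was that of COL2 DN20845_c0_g4, at 6.12, 2.67 and 4.31 TPM in CG1 and 1.69, 1.46 and 1.69 TPM in DG1 (-1.39 ± 0.54, adjusted p = 0.0836), which passed in DESeq2 (adjusted p = 0.0415). NFYC1, a CCAAT-box protein and no B-box protein, was at -0.74 (adjusted p = 0.124), and its DG1 replicate 1 at 24.8 TPM was less than the other DG1 libraries at 55.4 and 57.5 TPM.

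The 2 cultivars were then compared directly. Between well-watered leaves, 0 of 63 members differed, beside 0.442% of all genes, and 10 members had an unadjusted p under 0.05, beside 12.76% of all genes. Between droughted leaves 0 differed, beside 0.00686% of all genes, with 6 members and 16.04% of all genes at an unadjusted p under 0.05. In the drought change 0 differed, beside 0.0137% of all genes, with 9 members and 9.493% of all genes at an unadjusted p under 0.05. DESeq2 called 2, 2 and 1 members in these comparisons. Those counts cannot be set beside the shares above, which are those of edgeR, and no share is given for DESeq2. A larger change in G1 than in W1 is therefore not shown for any member by edgeR on all 12 libraries. The difference in drought change was positive in 47 of the 63 members (median 0.24), and in 49.46% of all genes.

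**Figure D4:**
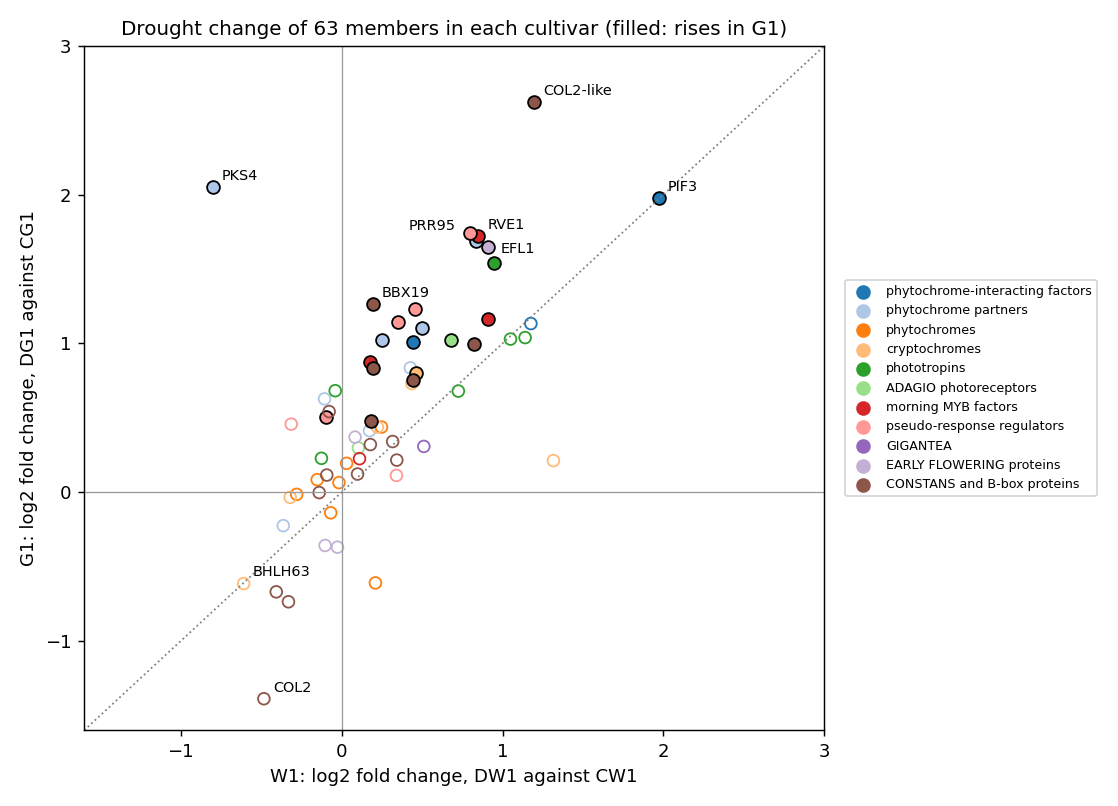
Log2 fold change under drought in W1 (x axis) against G1 (y axis) for the 63 tested members, coloured by role, with filled points for the 23 that rose in G1. The dotted line marks equal change: PIF3 lies on it, most filled points, which were chosen by their value in G1, lie above it, and PKS4 lies to the left of 0.

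Over all 63 members, the log2 fold change of CG1 against CW1 was negative in 48 (median -0.25, against -0.04 over all genes), and 0 passed. DG1 differed from DW1 by a median of 0.01. The 2 lowest of all 12 libraries were CG1 replicates 2 and 3 in 27 of the 63 members (42.9%), against 12.9% of all genes tested. This count was made after the values were seen. CG1 replicate 1 lay above both other CG1 libraries in 43 of the 63 members (68.3%), near the 63.02% of all genes tested. The mesophyll marker sum went the other way, at 77600 TPM in CG1 replicate 1 and 156000 and 144300 TPM in replicates 2 and 3, and its part in the pattern was not tested. Without CG1 replicate 1, 5 members were lower in CG1 than in CW1: PKS4 (-2.86), the COL2-like gene DN16437_c2_g1 (-2.05), PRR95 (-1.57), RVE1 (-1.06) and the ankyrin gene DN13372_c0_g7 (-0.90). No other single omission gave such a call. A share of all genes is not given for that run, so this count cannot be read as particular to the members.

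In TPM over all 63 members, DG1 was wholly above CG1 in 27 and wholly below in 5, beside 16.4% and 19% of all genes. DW1 was wholly above CW1 in 15 and wholly below in 7, beside 11.3% and 13.7%. Against the W1 controls instead, DG1 was wholly above CW1 in 15 of the 63, PIF3, RVE1, EFL1, CRY2, ADO3, COL9 and BBX19 among them, beside 15.6% of all genes. The G1 call was kept by 15 of the 23 genes in each of the 12 runs that left out 1 library. The other 8 (APRR1, APRR5, BBX22, COL13, PIF1, RVE8 DN20716_c1_g1, PKS1 and PKS4) lost it in at least 1 run, all of them without DG1 replicate 3, which left 15 risers.

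Other genes of the light and clock pathways were taken from lists by name. Beside the counts below, 11.5% of all genes rose and 12.3% fell in G1. The shares were 0.771% and 0.799% in W1, and 14% and 15.3% in the average. Of 7 clock partners (LUX, LNK, TIME FOR COFFEE, XAP5 and SRR1 genes), 0 passed in any comparison, with a median log2 fold change of 0.00 in G1. In the list of flowering outputs, all 3 tested genes were cyclic dof factors, the repressors that ADO3 and GIGANTEA remove in Arabidopsis, and all 3 rose in G1 and 0 in W1. CDF2 DN20586_c0_g3 was at 11.8, 8.81 and 10.3 TPM in CG1 and 22.7, 20.8 and 19.8 TPM in DG1, with no overlap (1.02 ± 0.13, adjusted p = 0.00134). CDF2 DN15318_c0_g2 rose by 1.45 ± 0.26 (adjusted p = 0.00422) and CDF3 by 1.25 ± 0.41 (adjusted p = 0.0471).

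Of the 19 tested genes of the COP, SPA and COP9 signalosome list, which break down light signalling proteins in the dark, 0 passed in G1 or W1. In the average over cultivars, SPA1, SPA3 and SPA4 rose (0.51, 0.83 and 0.55) and the signalosome subunits CSN4 and CSN5A fell (-0.41 and -0.64). Among 6 activators of the far-red and blue light pathways, FHY1, which carries phytochrome A into the nucleus, rose in G1 (0.87 ± 0.22, adjusted p = 0.0191) and FAR1 DN16622_c0_g2, a transcription factor that activates FHY1 in Arabidopsis, fell (-0.83 ± 0.26, adjusted p = 0.0415). WEB1, a protein of chloroplast movement, was the 1 of 6 phototropin partners that rose in G1 (1.10 ± 0.18, adjusted p = 0.00286). Of the 14 genes of the UV-B list, 5 rose in G1, beside 11.5% of all genes. Of these, 3 have the receptor UVR8 as best hit (0.57, 0.73 and 1.38), and 2 have animal RCC1 domain proteins as best SwissProt hit.

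Among outputs that light switches on in leaves, of 33 genes of the chlorophyll a-b binding, early light-induced and HAT4 kind, 1 rose and 1 fell in G1, with a median of -0.60, and 0 passed in W1, with a median of 0.26, beside the 11.5% of all genes that rose and the 12.3% that fell in G1. Of the 33, 29 are also among the leaf mesophyll markers that were low in DG1 replicate 1. The 33 genes summed to 8055 TPM there, against 60050 and 47760 TPM in the other DG1 libraries and 42130, 69140 and 60870 TPM in CG1. Without DG1 replicate 1 the median in G1 was -0.19, with 1 rising and 1 falling. ELIP1, which protects chloroplasts in excess light, was at 39.7, 62.8 and 21.1 TPM in CG1 and 168, 351 and 454 TPM in DG1 (2.84 ± 0.74, adjusted p = 0.0206). In W1 it went from 97.6, 81.1 and 21.1 TPM in CW1 to 42.4, 9.10 and 7.81 TPM in DW1, which did not pass. Several genes carry the name CAB13, a light-harvesting protein. Of these, only DN16342_c0_g1 fell in G1 (-3.88 ± 0.96, adjusted p = 0.0159), from 635, 487 and 650 TPM to 2.55, 71.2 and 52.3 TPM. The more abundant CAB13 gene DN14607_c0_g1 did not pass.

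Genes whose levels followed PIF3 most closely were sought among 14718 annotated genes with a mean of at least 5 TPM, by Pearson's r of log2(TPM + 1) over the 12 libraries. The closest were a gene of the regulatory gamma subunit of the SnRK1 energy-sensing kinase (DN15227_c0_g7, r = 0.98), the mechanosensitive channel gene MSL2 (DN16137_c0_g7, 0.97), a gene named htpX2 and annotated as a hypothetical protein of Citrus sinensis (DN13291_c0_g2, 0.97), the vacuolar malate channel gene ALMT9 (DN17532_c1_g8, 0.96) and the metal transporter gene MTP11 (DN14784_c1_g2, 0.96). The SnRK1 subunit gene averaged 2.75 TPM in CW1, 2.24 in CG1, 10.1 in DW1 and 8.31 in DG1. The points share the same libraries and depth, and r here describes these 12 libraries. Across the other 62 tested members r with PIF3 was positive in 45, with a median of 0.43, against -0.16 over the genes searched.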

How the data were processed

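Leaf RNA was sequenced in 12 libraries (Illumina). The authors assembled the reads with Trinity without a reference genome, annotated the genes against NR, SwissProt and KEGG, and estimated expression with RSEM. The table holds, per library, the expected counts and the TPM values, both deposited by the authors. A mouse genome build named in the labels was not used. Of the expected counts, 6.88% were not whole, and all were rounded.

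The main test was the quasi-likelihood test of edgeR 4.0.16 in R 4.3.3, with TMM normalization, filterByExpr by group and 1 mean per group over all 12 libraries. Adjusted p-values are Benjamini-Hochberg values over 29168 genes, and a call is an adjusted p under 0.05. The SE was derived from the fold change and the F statistic, and 95% intervals use it with Student's quantile. The average is the mean drought change of both cultivars, and the interaction is its difference, G1 minus W1. The code was tested on simulated data. Alternatives were DESeq2 1.42.0, limma 3.58.1, other scalings and filters, a replicate block and the omission of libraries. Whether replicates are separate pots is unclear (labels and paper differ), so p-values measure the spread between libraries only.

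The text names PIF3, the 3 members of highest mean TPM per role group, up to 5 members per role group and direction that passed in a drought comparison (by highest mean counts scaled to depth), up to 3 genes per list and direction that passed, and the 5 annotated genes closest to PIF3. Other names (PHYA1, PHYB, PHYE, CRYD, BHLH63, the COL2 genes, COL2-like, NFYC1, RVE6, PIE1, SPA, LHY and the like) were chosen after their values were seen. Members and lists were chosen with earlier results of these data known. The authors' qRT-PCR and physiological values were not analysed here.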

Additional observations from a re-analysis of the deposited data

How the results depend on the processing

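In G1 23 members rose, and the count was 15 to 23 when each of the 12 libraries was left out in turn, lowest without DG1 replicate 3. It was 23 with DESeq2 and with its size factors in edgeR, 20 with only the groups of the comparison, 18 with limma on log2(TPM + 1), 18 with no filter on low counts, 25 with a replicate block, and 2 or 0 where a change of at least 4-fold was also asked for, at an adjusted p under 0.05 or under 0.005. The number of members that fell in G1, 0 as reported, was 0 to 1 over the single omissions, 1 with DESeq2 and 1 with only the groups of the comparison. In W1, where PIF3 alone rose, the count was 0 to 4 over the single omissions (0 without CW1 replicate 1, CW1 replicate 2 or DW1 replicate 2, 2 without DG1 replicate 1 and 4 without DW1 replicate 1), 8 with DESeq2, 0 with only the groups of the comparison and 0 at 4-fold with either adjusted p. In the average over cultivars 24 rose, with 18 to 26 over the single omissions and 0 at 4-fold with either adjusted p, and 0 fell, with 0 to 1 over the single omissions, 2 with DESeq2, 2 with limma, 1 with DESeq2 size factors in edgeR and 1 with the replicate block. Of the cultivar comparisons, all at 0, DESeq2 called 2 members lower in CG1 than in CW1, 2 higher in DG1 than in DW1 and 1 with a larger change in G1. Single omissions gave 0 to 5 lower in CG1 and 0 to 1 with a larger change in G1, each from the run without CG1 replicate 1. With CW1 replicate 1 and DG1 replicate 1 both left out, a choice made after the values were seen, 20 members rose in G1, 0 in W1 and 22 in the average. No share of all genes is given for these alternatives, and the causes were not tested.

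Same-numbered libraries of different groups did not deviate together: the correlations of their deviations from the group means lay between -0.18 and 0.27, so the replicate numbers were not taken as pairs, and the replicate block stands only as an alternative. Neither scaling alternative moved the median log2 fold change of all genes by more than 0.021. Precision is limited by 3 libraries per group and, for low genes such as PKS4 and the COL2-like gene, by counts under 20 in single CG1 libraries.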

Other observations

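The authors' KEGG annotation places 89 genes of the table in the plant circadian rhythm pathway, of which 26 are among the 68 members described. Of the 63 others, 57 were tested, and 12 rose and 4 fell in G1 (median log2 fold change 0.27), beside 11.5% and 12.3% of all genes. In W1 0 were called, where 0.771% of all genes rose and 0.799% fell. These genes were looked at after the values of the members were seen. Those that rose include chalcone synthase (CHS DN12851_c1_g4), the entry enzyme of flavonoid synthesis, at 308, 995 and 800 TPM in CG1 and 3356, 2143 and 1744 TPM in DG1 (1.71 ± 0.54, adjusted p = 0.0409). The casein kinase 2 subunits, which phosphorylate LHY and CCA1 in Arabidopsis, went both ways in G1: CKA1 DN18766_c1_g3 rose by 0.46 ± 0.12 (adjusted p = 0.0209) and CKB4 DN16045_c0_g1 by 0.49 ± 0.14 (adjusted p = 0.0297), while the chloroplast form CKA4 DN17329_c0_g5 was at -0.60 ± 0.19 (adjusted p = 0.0422).

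TCP factors, plant-specific regulators of growth of which some bind clock gene promoters in Arabidopsis, also went both ways in G1. TCP8 DN13734_c1_g2 was at 17.7, 15.2 and 10.6 TPM in CG1 and 6.34, 8.51 and 7.38 TPM in DG1, with no overlap (-0.93 ± 0.21, adjusted p = 0.0119). TCP9 DN15838_c1_g1 was at 17.1, 2.15 and 5.11 TPM in CG1 and 42.6, 20.2 and 22.5 TPM in DG1 (1.96 ± 0.56, adjusted p = 0.0284), again with CG1 replicate 1 above the other CG1 libraries. BHLH80 DN18631_c1_g4, a bHLH factor, rose in G1 by 2.23 ± 0.29 (adjusted p = 0.00135), from 11.1, 6.44 and 7.46 TPM to 53.4, 29.7 and 33.0 TPM, and was at 12.6, 10.3 and 7.38 TPM in CW1 and 16.5, 20.4 and 15.9 TPM in DW1.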
